A study of Mus musculus with 36 samples.

Results

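Cytosolic ribosomal proteins are the protein subunits of the ribosome that translates messages of nuclear genes. Their genes were taken here as those whose only symbol on the array has the usual form of a ribosomal protein name (Rpl or Rps and a number, Rplp0 to Rplp2, or Rpsa), a pattern that leaves out the Rps6k kinases. It found 69 of 6971 genes with a single symbol, 44 of the large and 25 of the small subunit, on 164 spots. The pattern uses names and no measured value, but the set was chosen with earlier results of these data known. Rpl7l1, Rpl39l and Rps27l, relatives of Rpl7, Rpl39 and Rps27, fit the pattern and were kept. The study compared whole lungs of BALB/c mice that had been exposed to hypoxia with lungs of time-matched control mice. The hypoxic mice spent 1, 3, 7, 14 or 21 days at 0.5 atm (the hypoxia phase), or 21 days at 0.5 atm followed by 1, 3, 7 or 14 days at sea level pressure (the recovery phase, here days 22, 24, 28 and 35). At each day the RNA of 5 hypoxic mice and that of 5 control mice were pooled separately and hybridised together to spotted 2-colour cDNA arrays, 4 arrays a day and 36 in all. Values are log2 ratios. A value above 0 probably means more message in the hypoxic pool than in the control pool, because the labels name the hypoxic pool before the control pool and Cy5 before Cy3. No dye swap is recorded, so the direction is likely rather than settled.

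A ribosome holds a single copy of nearly every ribosomal protein, and cells make the set in matched amounts. Many of their messages begin with a run of pyrimidines next to the cap, the 5′ terminal oligopyrimidine (TOP) sequence, through which the mTOR pathway controls how strongly they are translated. Some of the proteins act outside the ribosome too: Rpl5 and Rpl11 bind Mdm2, the ubiquitin ligase of p53, and loss of a copy of Rps19, Rps26, Rpl5, Rpl11 or Rpl35a in humans causes Diamond-Blackfan anaemia. The arrays measured the amount of message and not its translation.

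Of 15388 spots, 14186 to 15042 had a value on an array. The spread at a single day comes from 4 arrays of the same pools, and that of a phase from its day means. Array medians over all spots lay between -0.016 and 0.050, and array SDs between 0.17 and 0.52, with replicate 1 of day 28 the widest. Replicates 1 and 2 of a day resembled each other, as did replicates 3 and 4 (median Pearson r = 0.71 over all spots), more than arrays across these pairs did (median r = 0.30). For the 69 ribosomal protein genes alone these medians were 0.73 and 0.099. The lowest r between any arrays was -0.301, and 2 pairs lay under -0.3. Ratios carry no levels, so the presence of lung marker messages could not be checked, and a change in the hypoxic pool cannot be told apart from a change in the control pool of the same day. In whole lung, fewer cells of a type and less RNA per cell cannot be told apart either. Each condition had a single pool a day, so p-values at single days measure only how arrays of the same pools varied, which may be technical.

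The first question was how the ribosomal protein genes moved together over the 9 days. The medians of both subunits stayed near 0, the control level, through the hypoxia phase, lay above 0 3 and 7 days after the return to sea level, and were near 0 again at day 35. The median over the 44 large subunit genes was -0.02 at day 1, -0.08 at day 3, -0.03 at day 7, -0.001 at day 14 and 0.03 at day 21. It was then 0.06 at day 22, 0.17 ± 0.085 at day 24, 0.28 ± 0.11 at day 28 and 0.00 ± 0.12 at day 35 (SD over the medians of 4 arrays). The 25 small subunit genes followed the same course, with medians of 0.03, -0.05, 0.01, 0.04 and 0.05 over the hypoxia phase, and of 0.09, 0.22 ± 0.12, 0.32 ± 0.18 and 0.01 ± 0.15 over recovery. All features on the arrays had medians of 0.026 at day 24 and 0.038 at day 28. The day medians of the large and the small subunit correlated with r = 0.994 over the 9 days, which share the same arrays. Of the 69 genes, 53 had their highest day mean at day 28 and 8 at day 24, and 33 had their lowest at day 3.

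**Figure D1:**
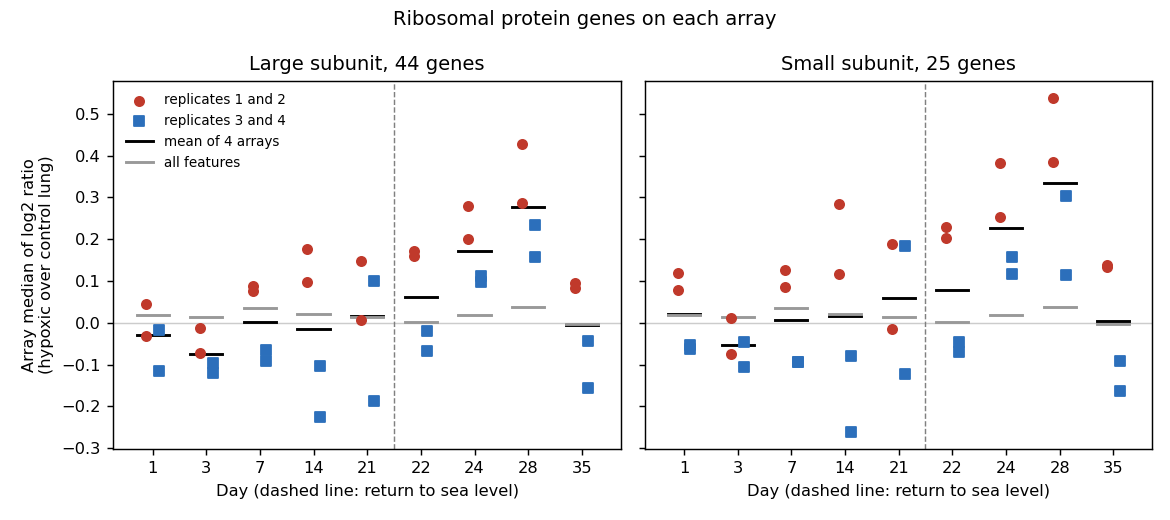
Median log2 ratio of the 44 large subunit genes (left) and the 25 small subunit genes (right) on each array, by day. Points are arrays, black lines the mean of the 4 arrays of a day, grey lines the same for all features; the points of days 24 and 28 all lie above 0, and at days 7, 14, 22 and 35 replicates 1 and 2 lie above 0 and replicates 3 and 4 below it.

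The array medians separated by replicate pair at several days. At day 14 the large subunit median was 0.15 in replicates 1 and 2 and -0.17 in replicates 3 and 4, and at day 35 it was 0.084 and -0.10. At day 24 the values were 0.22 and 0.094 for the large subunit and 0.31 and 0.15 for the small subunit, so both pairs lay above 0. At day 28 they were 0.36 and 0.18 for the large subunit and 0.39 and 0.19 for the small subunit. The 4 array medians of the large subunit at day 28 were 0.43, 0.29, 0.16 and 0.23. None of them overlapped the 4 of day 35, which were 0.084, 0.096, -0.045 and -0.16. Those of the small subunit did overlap. Its median in replicate 3 of day 28 was 0.12, below 0.14 and 0.13 in replicates 1 and 2 of day 35.

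**Figure D2:**
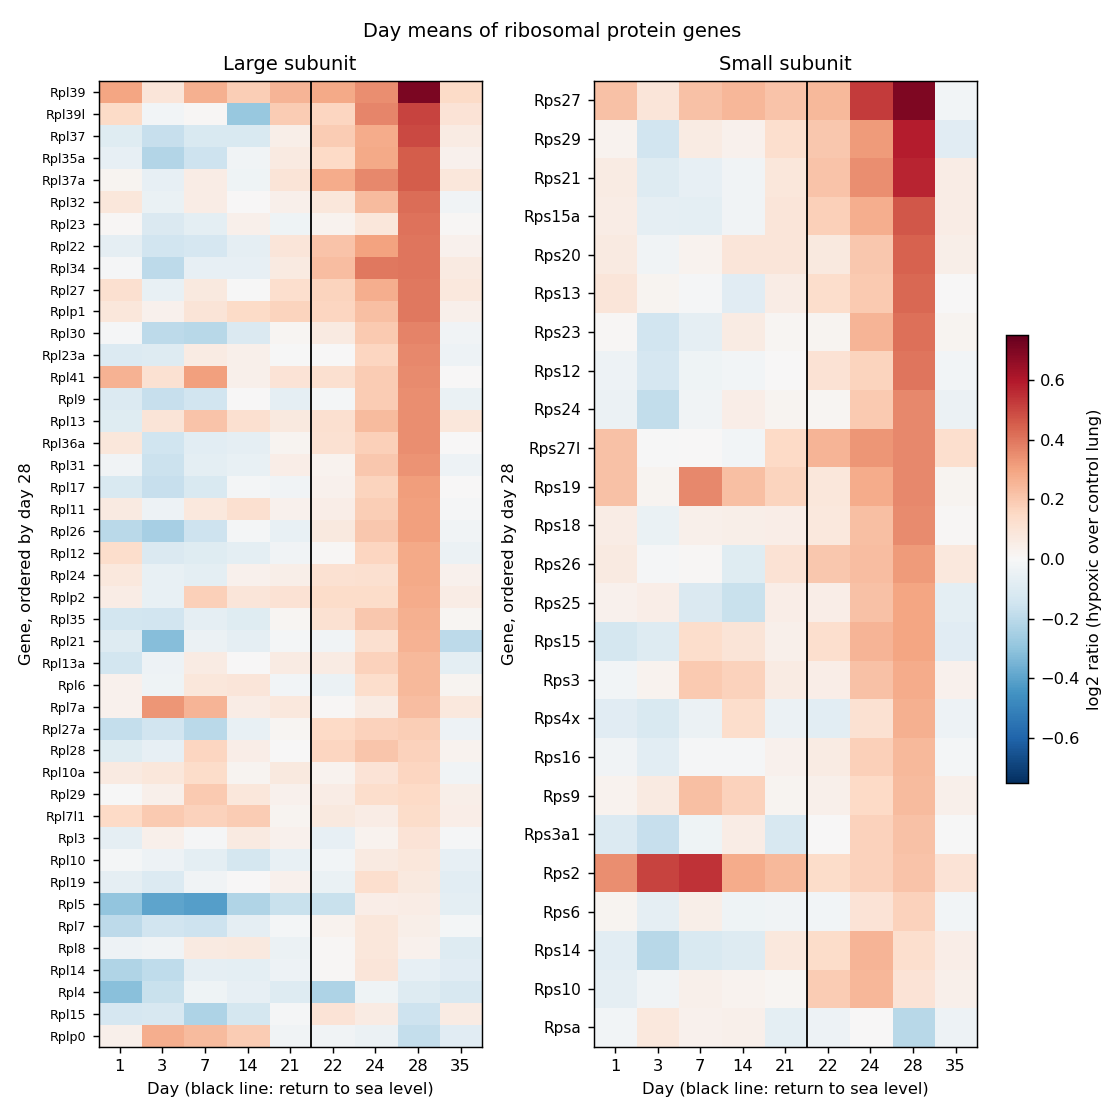
Mean log2 ratio of each of the 69 ribosomal protein genes (rows, grouped by subunit) at each of the 9 days (columns), over up to 4 arrays. Most rows are highest at day 28, where 64 of 69 day means lie above 0, against 37 of 69 at day 35 and 18 of 69 at day 3.

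Most genes followed the median of their own subunit. Over the 9 day means the r of a gene with the median of the other genes of its subunit had a median of 0.85. For 43 genes this r was over 0.8. Closest were Rps16 (0.99), Rps18 (0.99) and Rpl31 (0.98). Least alike were Rplp0 (-0.78), Rpsa (-0.76) and Rps2 (-0.48). Rplp0 is the base of the ribosomal stalk, the arm that recruits elongation factors, and Rpsa is also known as the laminin receptor precursor. These r values are a description, since all genes share the same arrays.

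The next question was which ribosomal protein genes differed from the control over the hypoxia phase as a whole. Rps2, a small subunit protein near the path of the message, was higher at all 5 days, and Rpl5 was lower at all 5. Rps19 was also higher. In limma, with Benjamini-Hochberg adjustment over 12159 features and the 5 days as units, 7 of the 69 genes passed 0.05 as higher and 5 as lower, or 10.1 percent and 7.25 percent, while 24.7 percent of all features were called higher and 17.7 percent lower. The medians were -0.03 for the large subunit and 0.01 for the small subunit, against 0.03 for all features.

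Rps2 had log2 ratios of 0.25, 0.31, 0.61 and 0.23 on the 4 arrays of day 1, and 0.63, 0.60, 0.32 and 0.48 at day 3. It had 0.58, 0.65, 0.53 and 0.42 at day 7, 0.39, 0.39, 0.25 and 0.08 at day 14, and 0.40, 0.30, 0.06 and 0.22 at day 21. All 20 of these values were above 0. The phase mean was 0.38 ± 0.13 (SD over days, n = 5), a 1.31-fold higher level in the hypoxic pools (limma adjusted p = 0.000252), and the day mean was highest at day 7, at 0.54. Both spots of Rps2 were higher, at 0.45 and 0.32. In recovery its mean was 0.15 and did not pass (limma adjusted p = 0.094). The phase mean was 0.45 in replicates 1 and 2 and 0.32 in replicates 3 and 4.

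Rpl5, which together with Rpl11 and the 5S rRNA forms a particle that joins the large subunit, had day means of -0.29, -0.40, -0.41, -0.23 and -0.17 over the hypoxia phase. All 20 array values of this phase were below 0, between -0.46 and -0.01. The mean was -0.30 ± 0.11 (SD over days, n = 5), or 0.812 of the control level (limma adjusted p = 0.000845). Its 5 spots ranged only from -0.32 to -0.29 over the phase. At day 22 the 4 arrays were still at -0.25, -0.07, -0.24 and -0.11, and at day 24 they were at 0.04, -0.03, 0.09 and 0.10. Its partner Rpl11 had day means between -0.04 and 0.12 over the hypoxia phase and was not called.

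Rps19 was higher over the phase by 0.20 ± 0.12 (limma adjusted p = 0.0154) and reached 0.36 at day 7, with 0.55, 0.39, 0.28 and 0.24 on the 4 arrays. Its 2 spots shared the sign but differed in size, at 0.34 and 0.05. The other genes called higher were Rpl39, a small protein of the wall of the exit tunnel (0.22), Rpl41, the smallest ribosomal protein (0.16), Rpl7a (0.15), Rpl7l1 (0.15) and Rplp0 (0.14). Those called lower were Rpl4, which lines the narrowest part of the exit tunnel (-0.13), Rpl15 (-0.12), Rpl14 (-0.12) and Rpl7 (-0.12). Their limma adjusted p ranged from 0.00963 for Rpl7l1 to 0.0477 for Rpl15.

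For several of these smaller differences the sign depended on the replicate pair. Replicates 1 and 2 alone gave 0.35 for Rpl41, 0.36 for Rplp0 and 0.31 for Rpl7a, whereas replicates 3 and 4 alone gave -0.02, -0.07 and -0.01. Rpl14 was at 0.09 in replicates 1 and 2 and -0.33 in replicates 3 and 4, and Rpl15 was at 0.01 and -0.26. Replicates 1 and 2 alone called 23 of the 69 genes higher and 2 lower (21.5 percent and 17.9 percent of all features), and replicates 3 and 4 alone called 6 and 23 (29.3 percent and 22.7 percent). Rps2, Rps19 and Rpl5 kept their sign in both pairs. The 3 spots of Rpl7l1 ranged from -0.01 to 0.36, and without the spot mean, taking the median spot, its value was 0.02 (limma adjusted p = 0.66).

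The single days of hypoxia added few genes. At day 1, 2 genes were called higher and 4 lower (10.6 percent and 9.04 percent of all features), at day 3 3 and 4 (13.3 percent and 9.95 percent), at day 7 6 and 3 (20.4 percent and 15.5 percent), and at day 14 4 and 1 (15.5 percent and 12.2 percent). Rpl5 was called lower and Rps2 higher at each of these 4 days. At day 1 Rpl4 was lower at -0.32, with all 4 arrays below 0. At day 3 Rpl21 was lower, at -0.29, -0.31, -0.38 and -0.31 on the 4 arrays (limma adjusted p = 0.00158), and Rpl7a was higher at 0.33 (limma adjusted p = 0.0313). At day 7 Rpl27a was lower at -0.21, and at day 14 Rps19 was higher at 0.22. At day 21 a single gene was above 0 on all 4 arrays (11.8 percent of all features). No gene was called in limma, while 2.22 percent of all features were called higher and 2.3 percent lower. An unadjusted p under 0.05 was found for 3 genes, against 1849 of all 12317 features. At day 3, when 33 genes had their lowest mean, 8 of 13 genes of proliferating cells were called higher (13.3 percent of all features), with a median of 0.30, and their part in the ribosomal protein values was not tested. No gene was called between day 3 and day 1, where 0.521 percent of all features were called higher and 0.662 percent lower.

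The recovery phase was compared with control lung in the same fit. Here 11 of 69 ribosomal protein genes were called higher and 0 lower, while 1.65 percent of all features were called higher and 3.12 percent lower. They were 6 of the large and 5 of the small subunit. An unadjusted p under 0.05 was found for 44 of the 69 genes, against 3637 of all 12159 features. The medians were 0.13 for the large and 0.15 for the small subunit, against 0.02 for all features, and 64 of 69 phase means lay above 0. The 11 genes were Rpl39 (0.37), Rps27 (0.36), Rps21 (0.30), Rpl37a (0.29), Rpl34 (0.27), Rps27l (0.27), Rpl37 (0.26), Rps15a (0.24), Rpl22 (0.24), Rpl27 (0.23) and Rps26 (0.21). Their limma adjusted p lay between 0.0323 for Rpl37a and 0.0468 for Rpl22. Rpl4 (-0.12) and Rplp0 (-0.08) had the lowest phase means and were not called.

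Rpl37a and Rpl37 are zinc-binding proteins of the large subunit. Rpl37a had 0.67, 0.30, 0.08 and 0.07 on the arrays of day 22 and 0.35, 0.61, 0.24 and 0.25 at day 24. It had 0.72, 0.48, 0.22 and 0.38 at day 28 and 0.17, 0.13, 0.07 and -0.03 at day 35. All but a single array of the phase were above 0, and the phase mean was 0.29 ± 0.16 (SD over days, n = 4). Rps27l, a relative of Rps27 that p53 is known to induce, was above 0 on all 16 arrays of recovery, from 0.01 to 0.70, with a mean of 0.27 ± 0.10. These calls lie close to the threshold: leaving out day 3, day 22, day 24 or day 28 from the fit left 0 of the 11 called, where 0.0246, 0.0411, 0 and 0.00821 percent of all features were higher. Leaving out day 35 gave 17 (2.01 percent). Replicates 1 and 2 alone gave 29 higher (4.64 percent of all features), and replicates 3 and 4 alone gave 4 higher and 1 lower (7.57 percent and 5.76 percent).

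The difference between the phases, hypoxia minus recovery, had medians of -0.14 for the large and -0.15 for the small subunit, against 0.01 for all features. With adjustment over all features limma called 0 of 69 genes in either direction (0.0329 percent of all features higher, 0 lower). Of the 69 genes 29 had an unadjusted p under 0.05, against 1843 of all 12159 features. Furthest below 0 were Rpl37 (-0.35, limma adjusted p = 0.108) and Rpl34 (-0.32, limma adjusted p = 0.117), which did not pass. Furthest above 0 were Rps2 (0.23, limma adjusted p = 0.178) and Rplp0 (0.23, limma adjusted p = 0.187), which did not pass either.

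**Figure D3:**
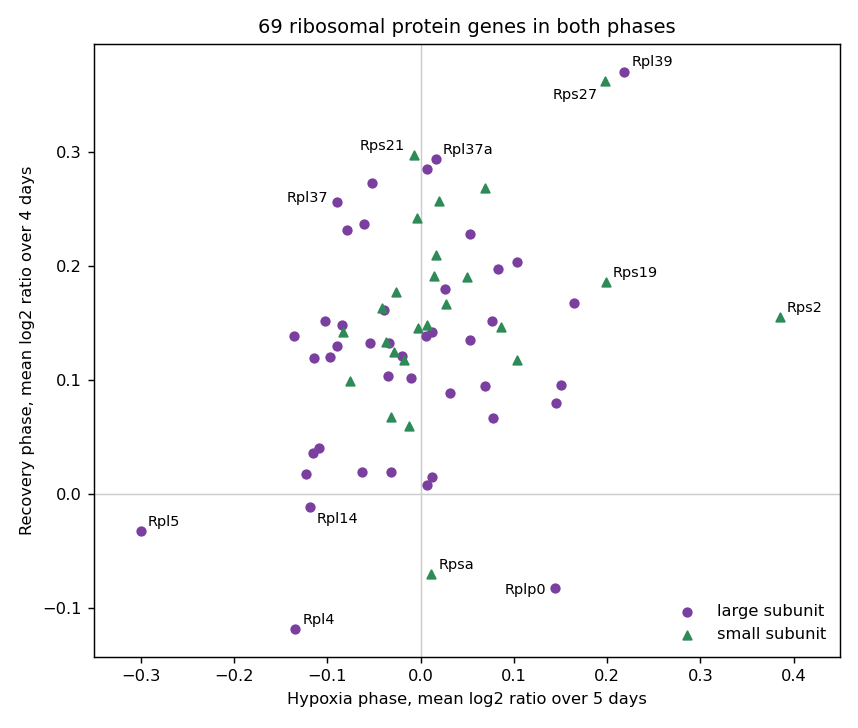
Mean log2 ratio over the 4 recovery days (vertical axis) against the mean over the 5 hypoxia days (horizontal axis) for the 69 ribosomal protein genes; circles are large and triangles small subunit genes. Most points lie above the horizontal line at 0 and spread around the vertical line, with Rps2 at 0.38 and Rpl5 at -0.30 farthest to the sides.

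Day 28, 7 days after the return to sea level, had the most calls. In limma 44 of 69 genes were called higher and 0 lower, while 18.6 percent of all features were called higher and 13.5 percent lower. The calls took in 25 of 44 large subunit genes and 19 of 25 small subunit genes. On all 4 arrays, 52 of 69 genes (75.4 percent) were above 0, against 29.2 percent of all features. Replicates 1 and 2 alone gave 53 genes (19.7 percent of all features), and replicates 3 and 4 alone gave 25 (12.6 percent). Leaving out replicate 1 of day 28, the array with the widest spread, gave 27 (9.56 percent), and leaving out replicate 1 of every day gave 20 (7.89 percent). With each day's replicate pair as a random block, a fit on the 7556 features with a value on all arrays, 36 of the 63 genes among them were called (15.2 percent).

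Rpl39 was highest, with 1.13, 0.48, 0.44 and 0.78 on the 4 arrays, a mean of 0.71 ± 0.13 (SE) and 1.63-fold the control level (limma adjusted p = 0.00012). All 4 arrays lay well above those of day 35, which were 0.11, 0.07, 0.14 and 0.24. Rps27, a zinc-finger protein of the small subunit, had 0.78, 0.96, 0.43 and 0.62 (mean 0.70, limma adjusted p = 0.000799). Rps29, another zinc-binding protein, had 1.00, 0.35, 0.42 and 0.56 (mean 0.59), and Rps21 had 0.96, 0.56, 0.26 and 0.50 (mean 0.57). In 3 of these 4 genes replicate 1 was the highest array, and in Rps27 it was replicate 2.

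The lowest p belonged to genes with smaller but more even values. Rps19 had 0.28, 0.38, 0.36 and 0.40 (mean 0.36, limma adjusted p = 5.3e-05), and Rpl11 had 0.40, 0.34, 0.23 and 0.27 (mean 0.31, limma adjusted p = 7e-05). Both were called under all 15 alternatives run for day 28. The 2 spots of Rps19 shared the sign at day 28 but differed in size, at 0.51 and 0.20. Its day mean was also 0.36 at day 7 of hypoxia. Of the other genes named above for Diamond-Blackfan anaemia, which are not a full list, Rpl35a (0.46) and Rps26 (0.32) were called higher, and Rpl5 was at 0.05 and was not. The acidic stalk proteins Rplp1 (0.39) and Rplp2 (0.28) were called higher, while their anchor Rplp0 was at -0.18, with -0.30, -0.06, -0.02 and -0.34 on the 4 arrays, and was not called (limma adjusted p = 0.324). Rplp1 and Rplp2 were both above 0 on all 4 arrays, so their arrays did not overlap those of Rplp0. A further 3 spots, listed under both Rplp0 and Gm8730, were at -0.13, -0.126 and -0.109 at day 28, below 0 as well.

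Other genes with known separate roles were spread over the range. Rps6, the substrate of S6 kinase, had 0.43, 0.34, -0.08 and 0.01 at day 28 (mean 0.18) and was not called. Rps3, which also binds damaged DNA, was called at 0.28, Rpl22 at 0.40, Rpl23 at 0.41 and Rpl26, which binds the message of p53, at 0.31. Rpl13a (0.25), Rpl10 (0.09) and Rps14 (0.13) were not called. Of the relatives, Rpl39l (0.51) and Rps27l (0.36) were called higher and Rpl7l1 (0.14) was not. Without these 3 relatives the count was 42.

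Below 0 stood Rpsa (-0.21), Rplp0 (-0.18), Rpl15 (-0.15), Rpl4 (-0.10) and Rpl14 (-0.06), none of them called. Rpsa had -0.65, 0.07, -0.04 and -0.22 on the 4 arrays, and its 7 spots ranged from -0.37 to 0.18, with 6 spots below 0 and a single spot above. Rpl15 had -0.54, 0.10, -0.15 and -0.03. In both genes the lowest array was replicate 1, the array on which Rpl39 was highest.

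**Figure D4:**
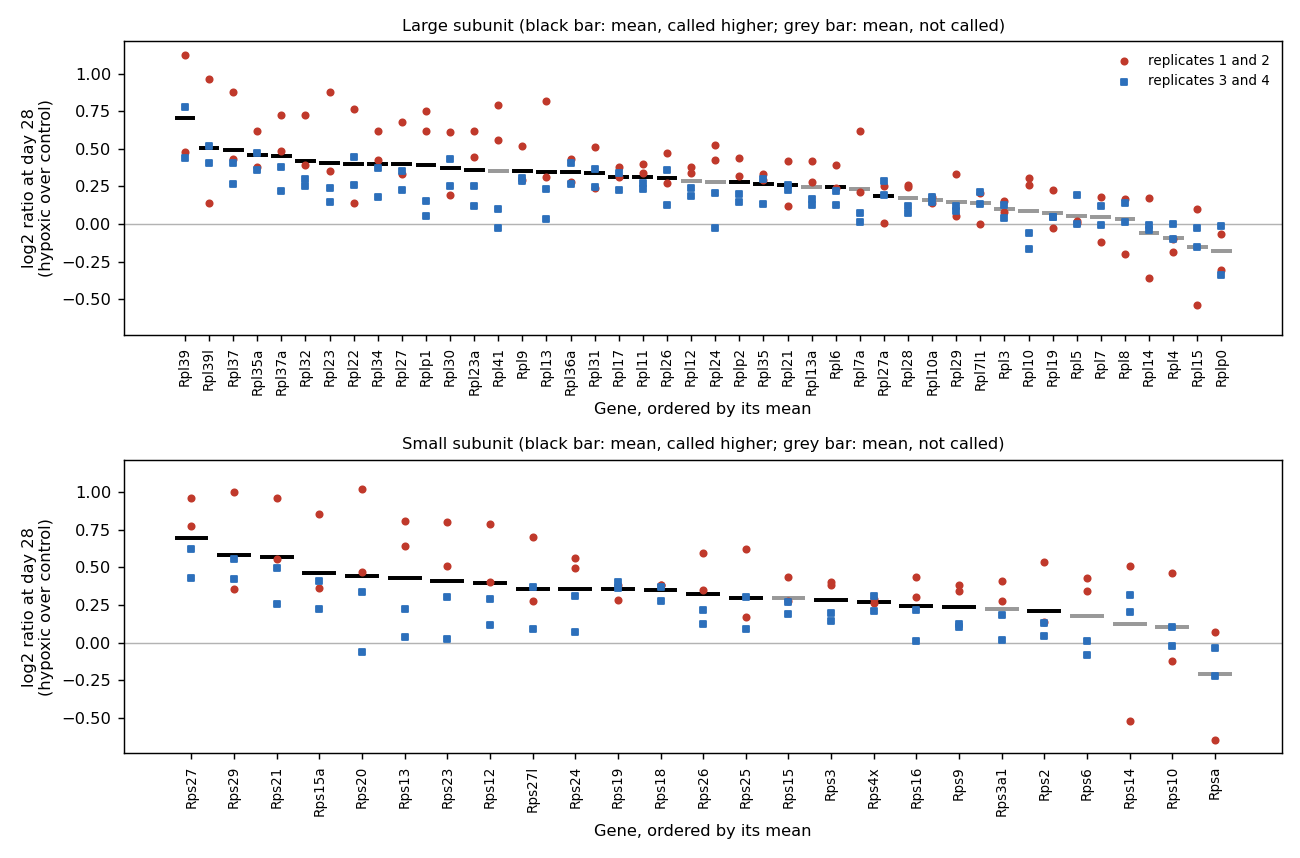
Log2 ratio of each ribosomal protein gene at day 28 on the 4 arrays, ordered by mean, with the large subunit above and the small subunit below. Circles are replicates 1 and 2, squares replicates 3 and 4, and black bars mark the means of the 44 genes called higher; the range of means runs from 0.71 for Rpl39 to -0.21 for Rpsa.

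Promoters are shown for 3 of the highest genes and the 3 lowest at day 28. Most members moved together at that day, and these stood at or near the ends of the range. Rps29 (0.59) stood above Rps21 (0.57) at day 28 and is not shown. The RefSeq table (GRCm38.p6) held a promoter for 56 of the 69 genes. The windows run from 50 bases before the annotated start to 30 after it, 5′ to 3′ on the strand of the gene, and capitals mark runs of at least 8 C or T without a break. They are chrX:37085193-37085272 (minus strand) for Rpl39, chr3:90213619-90213698 (minus) for Rps27, chr2:180257329-180257408 (plus) for Rps21, chr14:18270957-18271036 (minus) for Rpl15, chr5:115559417-115559496 (plus) for Rplp0 and chr9:120127716-120127795 (plus) for Rpsa.
Rpl39: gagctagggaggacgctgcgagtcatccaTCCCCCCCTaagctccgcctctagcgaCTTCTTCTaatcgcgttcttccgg
Rps27: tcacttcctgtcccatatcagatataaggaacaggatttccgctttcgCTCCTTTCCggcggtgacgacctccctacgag
Rps21: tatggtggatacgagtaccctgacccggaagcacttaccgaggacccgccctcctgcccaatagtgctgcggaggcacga
Rpl15: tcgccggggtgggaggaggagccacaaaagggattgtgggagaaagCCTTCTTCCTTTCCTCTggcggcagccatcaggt
Rplp0: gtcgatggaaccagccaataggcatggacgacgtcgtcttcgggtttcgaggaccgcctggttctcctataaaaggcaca
Rpsa: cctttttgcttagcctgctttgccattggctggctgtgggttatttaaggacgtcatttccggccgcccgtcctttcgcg

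Such a run was found in Rpl39 and Rps27, which were called higher at day 28, and also in Rpl15, which was at -0.15, where it was the longest at 17 bases. It was not found in the windows of Rps21, Rplp0 and Rpsa. Among the ribosomal protein genes 36 of 56 (64.3 percent) held a run of at least 8 C or T in this window, against 33.6 percent of 27025 genes with a promoter in the table. It was held by 25 of 36 genes called at day 28 (69.4 percent) and by 11 of 20 not called (55 percent). The letters CCGGAAG, a core of the sites that ETS factors bind, were found on either strand of the full 300 bases in 24 of 56 genes (42.9 percent), against 9.93 percent of all genes. On the opposite strand this motif reads CTTCCGG and can overlap a pyrimidine run by its first 5 letters. These matches describe the sequences and are not shown to be sites.

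Day 24 showed the same direction at a smaller size. On all 4 arrays, 52 of 68 genes (76.5 percent) were above 0 and 0 below, against 23 percent of all features above 0. In limma 3 genes were called higher and 0 lower, while 0.754 percent of all features were called higher and 2.12 percent lower. An unadjusted p under 0.05 was found for 35 of the 69 genes, against 1948 of all 12338 features. Rpl34 had 0.22, 0.55, 0.51 and 0.31 (mean 0.40, limma adjusted p = 0.0101), Rps19 had 0.27, 0.35, 0.24 and 0.27 (mean 0.28, limma adjusted p = 0.0101), and Rpl37a had a mean of 0.36 (limma adjusted p = 0.0339). All 4 arrays of each of these genes were above 0. The count changed with the processing: with arrays scaled to the same spread it was 39 genes (10.6 percent of all features), and with each day's replicate pair as a random block, on the 63 genes with a value on all arrays, it was 0 (0.0662 percent). Leaving out any replicate number gave 0 or 1 (0.0403 to 0.153 percent), and leaving out replicate 1 of day 28 alone gave 7 (1.1 percent).

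At day 22, 1 day after the return, 19 of 68 genes (27.9 percent) were above 0 on all 4 arrays, against 8.55 percent of all features. There limma called 0 of 69 (0.805 percent of all features higher and 0.756 percent lower). Of the 69 genes 9 had an unadjusted p under 0.05, against 1205 of all 12302 features. At day 35, 4 of 69 genes (5.8 percent) were above 0 on all 4 arrays, against 11.1 percent of all features. Again limma called 0 (1.81 percent of all features higher and 1.36 percent lower). Of the 69 genes 1 had an unadjusted p under 0.05, against 1239 of all 12461 features. Neither step from day 21 passed for any gene: day 22 minus day 21 had medians of 0.04 for the large and 0.03 for the small subunit (0.37 percent of all features called higher and 0.239 percent lower), and day 35 minus day 21 had medians of -0.03 for both (0.719 percent and 0.351 percent). From day 24 to day 28 the medians of the difference were 0.11 and 0.09, and no gene was called (0.156 percent and 0.608 percent).

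A week later many genes were lower again. The difference, day 35 minus day 28, had medians of -0.31 for the large and -0.34 for the small subunit. In limma 22 of 69 genes were lower at day 35 and 0 higher, while 7.78 percent of all features were lower and 5.54 percent higher; 13 of the 22 were large and 9 small subunit genes. Rpl21 had -0.01, 0.03, -0.43 and -0.37 on the arrays of day 35, against 0.42, 0.12, 0.23 and 0.26 at day 28, a difference of -0.45 ± 0.10 (SE, limma adjusted p = 0.0036). Rpl9 had 0.14, 0.00, -0.12 and -0.22 at day 35, against 0.52, 0.29, 0.28 and 0.30 at day 28 (-0.40 ± 0.095, limma adjusted p = 0.00509). In both genes the arrays of the 2 days did not overlap. Rps27 (-0.72), Rps29 (-0.67), Rpl39 (-0.56) and Rps21 (-0.51) had the largest differences among the called genes. The count rested in part on replicate 1 of day 28, without which it was 4 (2.3 percent of all features lower), and it was 2 with each day's replicate pair as a random block, on the 63 genes with a value on all arrays (2.77 percent). It depended on other arrays too: leaving out a replicate number at every day gave 1 to 19, with 1 without replicate 4 (3.56 percent). Replicates 1 and 2 alone gave 8 (3.5 percent), and replicates 3 and 4 alone gave 9 (2.64 percent).

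Spots of the same gene mostly agreed in recovery. Of the 45 genes with over 1 spot, 5 had spots of both signs over the recovery phase (Rpl15, Rpl3, Rpl7l1, Rpl8 and Rpsa) and 18 over the hypoxia phase, where most values lay near 0. The median range between spots of a gene over recovery was 0.04. Ribosomal protein genes have many processed pseudogenes and close relatives, so a cDNA spot may also bind their messages, and single-gene values are uncertain to that extent. A further 31 spots are listed under several genes that include a ribosomal protein, 5 of which (Rpl22l1, Rpl36, Rpl38, Rps28 and Rps7) occur only there, and they were not among the 69. Their median was 0.194 at day 24, 0.29 at day 28 and 0.021 at day 35, with 30, 28 and 18 of 31 spots above 0.

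Lists of genes that work with the ribosomal proteins had medians nearer 0 at day 28. Of the proteins made as a fusion of a ribosomal protein or bound stably to the ribosome, Fau alone was measured, at 0.17 at day 24 and 0.19 at day 28, and it was not called. Among 18 other messages known to carry a TOP sequence, 6 were called higher and 5 lower at day 28 (18.6 percent and 13.5 percent of all features), with a median of 0.08. Higher were Tpt1 (0.43), the elongation factor subunit Eef1b2 (0.31), the host transcript Gas5 (0.27), Naca (0.24) and Btf3 (0.16), both of the complex that binds nascent chains, and the poly(A)-binding protein Pabpc1 (0.18). Lower were Eif4b (-0.70), the elongation factor Eef2 (-0.47), Hnrnpa1 (-0.43), Eif3l (-0.37) and Nap1l1 (-0.27). Over the hypoxia phase 3 of the 18 were higher (24.7 percent of all features), among them Tpt1 (0.33) and Eif3f (0.26), and 4 were lower (17.7 percent), among them Eif4b (-0.36) and Eif3e (-0.28). Over recovery none was called.

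Of 70 genes of ribosome biogenesis, the factors that make and process rRNA and assemble the subunits, 9 were higher and 8 lower at day 28 (18.6 percent and 13.5 percent of all features), with a median of 0.04. Over the hypoxia phase 16 of 69 were higher and 13 lower (24.7 percent and 17.7 percent of all features), with a median of 0.03. Noc4l (0.34) and Bysl (0.25), which act in small subunit assembly, were higher, and Rsl1d1 (-0.37) and Pes1 (-0.25), which acts in large subunit assembly, were lower. Over recovery only Wdr36 was called, lower at -0.31. Of 15 regulators in the mTOR and S6 kinase pathway, 4 were higher and 5 lower over the hypoxia phase (24.7 percent and 17.7 percent of all features), among them Rps6kc1 (0.31), Akt1s1 (0.19), an inhibitor of mTOR complex 1, the cap-binding protein Eif4e (-0.34) and Sesn1 (-0.20). At day 28, 3 were higher and 2 lower (18.6 percent and 13.5 percent). Of 3 genes of ribosomal stress and p53, Ccng1 (-0.28) and Mdm2 (-0.24) were lower over hypoxia.

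Markers of several cell types moved at day 28 as well, when 18.6 percent of all features were higher and 13.5 percent lower. Of 4 erythroid genes 2 were lower, among them Hbb-b1 (-0.60), and their median was -0.38, against -0.03 at day 24. Of 4 neutrophil genes 2 were lower, with S100a9 at -2.97 and a median of -0.51. Ighm of lymphocytes (-0.38), Sftpd of alveolar epithelium (-0.45) and Cnn1 of smooth muscle (-0.56), each the only gene measured for its cell type, were lower, and of 2 endothelial genes Emcn was higher (0.52). Of 13 genes of proliferating cells 3 were lower at day 28, with a median of -0.02, and -0.11 at day 24. Their part in the ribosomal protein values was not tested.

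The named genes outside the set whose day means were most like the median of the 69 genes, among 6729 compared, were B230308N11Rik (r = 0.974), the RNA-binding protein gene Qk (0.972), Entpd4 (0.971), Cdc14a (0.965) and Sh3bgr (0.958) over the 9 days. Qk was at 0.10 at day 24, 0.38 at day 28 and -0.14 at day 35. The r is a description over days that share the same arrays.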

How the data were processed

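Lung RNA was measured on 36 spotted 2-colour cDNA arrays, and the deposited series table was used. Per the labels, the authors made log2 ratios of median intensities with GenePix Pro 4.0, after subtracting background and dropping flagged spots, and normalised them by lowess. Those deposited log2 ratios were used as they stand. Channel intensities were not used here.

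Spots were named from the platform annotation (9598 of 15388 with 1 symbol, 514 with several, 5276 with none), spots of a gene were averaged, and other spots were kept as unnamed features, giving 12761 features. For 68 of the 69 genes the Entrez identifier matched RefSeq (GRCm38.p6), and Rpl5 matched by symbol. The limma functions lmFit and eBayes (limma 3.58.1, R 4.3.3) were run on all features, two-sided, with Benjamini-Hochberg adjustment and a threshold of 0.05. Phases were fitted on 9 day means (at least 2 arrays a day), days and differences between days on the 36 arrays (at least 3 of 4 arrays). All 69 genes passed these limits in every comparison. In data simulated for 4705 genes at day 28, 63 percent of 100 genes changed by 0.3 and 88 percent of 100 changed by 0.5 were recovered, and 3 of 154 calls were of unchanged genes. The simulated arrays varied independently, whereas measured arrays of a replicate pair varied together (consensus correlation 0.42). These rates therefore hold for independent arrays only and do not give the error rates of the measured ones.

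Any of the 69 genes may be named. Values are shown for those with the lowest adjusted p in each comparison, those most and least like their subunit, and those with known separate roles. From other lists up to 2 called in each direction over a phase are named, and calls at day 28 of TOP messages and cell markers were named after their values were seen. The members, lists and tests were chosen with earlier results of these data known. The alternatives were centring each array, giving arrays the same spread, stricter and looser limits on empty values, other ways to combine spots, replicate numbers as a block, replicate pairs alone or as a random block, and leaving out each replicate or day. Leaving out replicate 1 of day 28 and leaving out the 3 relatives were added after the data were seen.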

Additional observations from a re-analysis of the deposited data

Results flagged for a closer look

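Of 275 groups of 4 or 5 values of the named ribosomal protein genes, 7 held a value far from the others, and chance alone gives about 1 in 20. On single arrays, Rpl39 at day 14 had replicate 1 apart at -0.023, against 0.24 to 0.28 in the other replicates. Rpl5 at day 28 had replicate 4 apart at 0.193. Rpl27 at day 7 had replicate 1 apart at 0.047, and Rpl11 at day 21 had replicate 3 apart at -0.17. Among day means, Rpl7l1 was at 0.020 at day 21, below its other hypoxia days, and Rps27 was at 0.091 at day 3, below its other hypoxia days. Rpl15 over the recovery days had day 28 apart at -0.154.

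Between days 35 and 28 the ratio itself differed by a test of the difference for 22 of 69 ribosomal protein genes, all lower at day 35. Of all features 7.78 percent were lower and 5.54 percent higher. Under the alternatives the count ran from 1 without replicate 4 to 38 with replicate numbers as a block. It was 4 without replicate 1 of day 28. Rpl21 (-0.45) and Rpl9 (-0.40) had the lowest adjusted p. Since each day has its own control pool, which of the pools changed cannot be told apart.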

How the results depend on the processing

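Rps2 and Rpl5 over the hypoxia phase kept their direction and their call under all 22 alternatives run, and Rps19 and Rpl11 at day 28 under all 15. In replicates 1 and 2 alone the hypoxia phase values of Rpl14 (0.093) and Rpl15 (0.014) turned positive, and in replicates 3 and 4 alone those of Rpl41 (-0.018), Rplp0 (-0.069) and Rpl7a (-0.015) turned negative; the cause was not tested. Scaling arrays to a common spread gave 2 genes lower over hypoxia (16.3 percent of all features) and 36 higher over recovery (13.2 percent). With this scaling 39 genes were higher at day 24 (10.6 percent) and 14 lower at day 35 than at day 28 (6.23 percent). Over all features it turned the recovery calls from 201 higher and 379 lower to 1608 and 1509 and those of day 24 from 93 and 261 to 1312 and 1303, and centring arrays on their medians turned those of day 35 minus day 28 from 678 and 952 to 822 and 701. Replicate numbers were not shown to pair the arrays: same-numbered arrays of different days deviated together with a median r of 0.38 (-0.25 for different numbers), but 88.2 percent of 144 same-numbered pairs and not all were over 0.1, with a lowest of -0.12, and 16 of 36 arrays correlated best with their own number. The replicate block gave 15 higher and 13 lower over hypoxia (32.5 percent and 24.3 percent of all features) and 55 and 1 over recovery (24 percent and 18.1 percent). For hypoxia minus recovery it gave 2 higher and 41 lower. The share of all features was not kept for that difference, so these counts cannot be set against it. The block also gave 14 higher at day 24 (2.22 percent) and 38 lower at day 35 than at day 28 (12.2 percent). For the phases this fit used the 36 arrays as units and not the 9 day means. Its phase p-values therefore measure the spread between arrays of the same pools, and its phase counts are not like for like with the main ones. The replicate pair of each day as a random block (consensus correlation 0.42, on the 7556 features and 63 genes with a value on all arrays) gave 0 at day 24 (0.0662 percent of all features) and 2 between days 35 and 28 (2.77 percent). Replicates 1 and 2 alone gave 23 higher and 2 lower over hypoxia (21.5 percent and 17.9 percent of all features), with medians of 0.034 for the large and 0.10 for the small subunit. They gave 29 over recovery (4.64 percent) and 8 between days 35 and 28 (3.5 percent). Replicates 3 and 4 alone gave 23 lower over hypoxia (22.7 percent of all features), with medians of -0.086 and -0.059, and 4 higher and 1 lower over recovery (7.57 percent and 5.76 percent). They gave 1 at day 24 (0.155 percent), 25 at day 28 (12.6 percent) and 9 between days 35 and 28 (2.64 percent). Leaving out each replicate in turn gave 4 to 10 higher and 1 to 7 lower over hypoxia, with medians of -0.049 to 0.025 for the large and -0.037 to 0.032 for the small subunit. Of all features, 21.6 to 25.9 percent were then higher and 15.9 to 18.7 percent lower. It gave 4 to 12 higher over recovery (1.24 to 2.64 percent of all features) and 0 to 1 at day 24 (0.0403 to 0.153 percent). At day 28 it gave 20 to 46 (7.89 to 17 percent), and between days 35 and 28 it gave 1 to 19 (0.954 to 5.93 percent). Leaving out a day gave, over hypoxia, 1 lower without day 1 (16.3 percent of all features) and 4 higher and 1 lower without day 3 (20.1 percent and 15 percent). It gave 2 and 2 without day 7 (18.6 percent and 14.2 percent) and 3 lower without day 22 (17 percent). Over recovery it gave 4 higher without day 1 (0.912 percent), 6 without day 14 (1.1 percent) and 17 without day 35 (2.01 percent). Without day 3, day 22, day 24 or day 28 it gave 0 (0.0246, 0.0411, 0 and 0.00821 percent). Without replicate 1 of day 28, chosen after seeing the data, the counts were 7 at day 24 (1.1 percent of all features), 27 at day 28 (9.56 percent) and 4 between days 35 and 28 (2.3 percent). Of 426 recomputed counts and medians of the main comparisons, 365 stayed within 1.5 times the count or within the spread of the median. These 365 include counts of 0 that stayed 0. The count higher over recovery moved in 13 alternatives and held in 10. At day 24 the count higher moved in 9 and held in 6, and so did the count lower at day 35 than at day 28. At day 28 the count higher moved in 3 and held in 12. Over hypoxia the count higher moved in 6 and held in 17, and the count lower moved in 10 and held in 13. Signal over background was not used here, so what dim spots limit is unknown.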
